A study of Mus musculus with 6 samples.

Results

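The 10 genes described here encode a ligand and 9 cell-surface proteins of signals that bear on quiescence, activation, growth and movement of muscle stem cells. They are *Hgf* and its receptor *Met*, the CXCL12 receptors *Cxcr4* and *Ackr3*, and the EGF receptor *Egfr*. Beside these are the IGF1 and insulin receptors *Igf1r* and *Insr*, and the IL-6 family receptor chains *Osmr*, *Lifr* and *Il6st*. All 10 genes were chosen by gene symbol and not by a rule on measured values, but with earlier results of these data known. They are 10 of 54115 genes with a transcript in the processed data. RNA-sequencing was performed on satellite cells sorted from uninjured hindlimb muscle of young adult mice, with 3 libraries from Pax7WT and 3 from Pax7KR mice and 15 ng of RNA per library. Pax7KR mice carry a lysine-to-arginine substitution in PAX7, at a lysine between the paired domain and the homeodomain, in all cells and on both alleles. They descend from C57BL/6J founders edited with CRISPR-Cas9, and their wild-type littermates (Pax7WT) were the controls. No mouse was injured or treated. Cells were released with collagenase and dispase and sorted as positive for CD34 and α7-INTEGRIN and negative for SCA-1, CD45, CD11b and CD31.

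Satellite cells lie between the muscle fibre and its basal lamina and stay out of the cell cycle until the muscle is damaged. HGF, which is released from the matrix of injured muscle, acts through the receptor tyrosine kinase MET and is known as an early activating signal for these cells. CXCL12 guides migration through CXCR4, whereas ACKR3 binds the same chemokine and removes it from the surroundings. EGFR, IGF1R and INSR are receptor tyrosine kinases of growth signalling. OSMR and LIFR each pair with gp130, the product of *Il6st*, to receive oncostatin M and LIF, and oncostatin M is known to hold satellite cells in quiescence.

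The 6 libraries held 17822367 to 27908054 estimated reads. *Pax7* itself gave 1551 ± 101 CPM (reads scaled to equal library sizes, SD, n = 3) in Pax7WT and 1502 ± 119 CPM in Pax7KR, a log2 fold change of -0.05 (SE 0.08), which does not check the genotype, since the substitution changes the protein and read counts per gene do not show it. The 14 satellite cell markers summed to 8900 to 9470 CPM in Pax7WT and 9280 to 9600 CPM in Pax7KR. Of the cells excluded by the sort, the endothelial marker *Pecam1* lay at 20.7 to 42.2 CPM in Pax7WT and 26.9 to 50.4 CPM in Pax7KR, the leukocyte marker *Ptprc* at 0.0946 to 1.27 CPM over all libraries, and *Pdgfra* of fibro-adipogenic cells at 1.51 to 3.81 CPM. Other genes of the fibro-adipogenic list were higher, such as *Dcn* at 24.7 to 45.3 CPM and the collagen gene *Col3a1* at 1258 to 1411 CPM.

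All 10 genes passed the filter on low reads, and 0 of 10 differed between the genotypes at an adjusted p under 0.1 in edgeR's quasi-likelihood test, against 0% of the 17152 genes tested. At an unadjusted p under 0.05 there were also 0 of 10, against 4.68% of all genes tested. Without 1 library this count was 0 to 2, with *Met*, *Cxcr4*, *Ackr3* or *Igf1r* below 0.05 in single fits, each lower in Pax7KR. Over all genes tested, these fits gave from 533 of 16844 genes to 1048 of 16942 genes below 0.05. The values of the 3 Pax7KR libraries lay entirely above or below those of the 3 Pax7WT libraries for 0 of 10 genes in CPM, against 10.3% of all genes tested. In mean, 5 genes were higher and 5 were lower in Pax7KR. Their log2 fold changes (Pax7KR over Pax7WT) ran from -0.25 to 0.08 with a median of 0.009, beside a median of -0.004 over all genes tested. A p above the threshold does not show equal expression, so the 95% interval of each fold change is given below. The narrowest intervals were those of *Lifr*, *Il6st*, *Insr* and *Egfr*, with lower bounds of 0.906-fold to 0.963-fold and upper bounds of 1.09-fold to 1.17-fold, and the widest was that of *Hgf*.

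**Figure D1:**
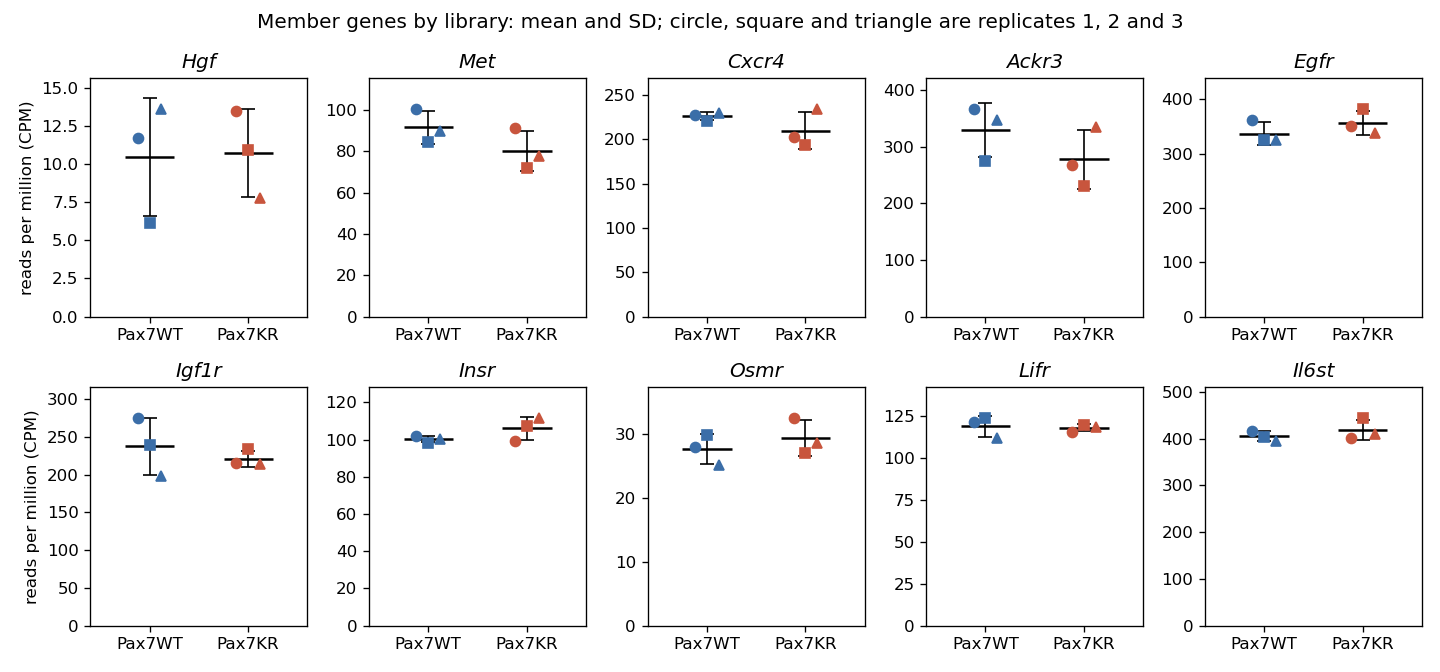
CPM (reads scaled to equal library sizes, linear axes from 0) of each of the 10 genes in the 3 Pax7WT (blue) and 3 Pax7KR (red) libraries, with the mean (line) and SD (bar); the marker shape gives the replicate number. The genotypes overlap in every panel, and the spread within a genotype is widest, relative to its mean, for *Hgf*, with a coefficient of variation of 36.9% in Pax7WT.

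*Hgf* (ENSMUSG00000028864), the ligand, lies on the plus strand of chromosome 5, chr5:16553495-16620152 of GRCm38. Its values were 11.7, 6.15 and 13.6 CPM in the 3 Pax7WT libraries and 13.5, 11 and 7.76 CPM in the 3 Pax7KR libraries. The second Pax7WT library and the third Pax7KR library were the low ones, and the ranges overlapped almost completely. The log2 fold change was 0.03 (SE 0.33), with a 95% interval of 0.593-fold to 1.76-fold, so differences within these bounds were not excluded by these libraries. *Hgf* rested on 109 to 319 reads per library, the fewest of the 10 genes. Leaving out 1 library at a time moved its log2 fold change from -0.23, without the second Pax7WT library, to 0.25. That Pax7WT library also had the lowest sum of 19 immediate early and dissociation response genes, 29300 CPM, while the remaining Pax7WT libraries reached 45700 and 48100 CPM and the Pax7KR libraries 38200 to 43500 CPM. In Pax7KR the lowest sum, 38200 CPM, was that of the first library, which had the highest *Hgf* value of that genotype. The part of this response in the *Hgf* values was not tested.

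The reads of *Hgf* were spread over several transcripts. Hgf-204 and Hgf-201 have the same coding exons, with 728 codons, and differ in their last exon, which is 846 bases longer in Hgf-204. They also start at different positions, chr5:16553550 and chr5:16553786, and have 19 and 18 exons. Hgf-203 encodes 723 codons, because a splice junction joins 15 bases further into the next exon, and a form of HGF that lacks a few residues at the start of its first kringle domain is known. Because this choice changes the ligand itself, both coding stretches are given from 20 bases before this junction (chr5:16566842-16572526, plus strand, GRCm38, GENCODE transcripts), with the bases that Hgf-203 leaves out in capitals.
Hgf-204: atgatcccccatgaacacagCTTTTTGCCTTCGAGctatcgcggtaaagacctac
Hgf-203: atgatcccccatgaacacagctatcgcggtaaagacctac

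Hgf-204 took 51.3%, 68.4% and 61.5% of the estimated *Hgf* reads in Pax7WT and 51.6%, 46.4% and 42.2% in Pax7KR. The means were 60.4% ± 8.60 and 46.7% ± 4.72 (SD, n = 3), and the first library of each genotype lay where the groups overlapped. Their difference of -13.7 percentage points had p = 0.2 in a two-sided exact permutation test (adjusted p = 0.667 over the 10 genes), in which 3 against 3 libraries cannot go below 0.1. Hgf-201, with the later start and the shorter 3′ end, took 15.4%, 15.3% and 20.3% in Pax7WT and 11.7%, 45.5% and 44.9% in Pax7KR. It was high in the second and the third Pax7KR libraries, while the first Pax7KR library lay below all Pax7WT libraries. Hgf-203 took 23.8%, 9.11% and 4.93% in Pax7WT and 26.6%, 0% and 4.51% in Pax7KR. These shares came from 17 to 120 reads for Hgf-201 and 0 to 82 reads for Hgf-203, and the error of salmon's assignment of reads to transcripts was not given with the values.

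Of the genes tested, the 3 whose log2(CPM + 1) followed *Hgf* most closely over the 6 libraries were *Lias*, which encodes lipoic acid synthetase (Pearson r = 0.99), *Glrb*, which encodes a glycine receptor subunit (r = 0.99), and the predicted gene *Gm17308* (r = 0.99), which lay at 0.0565 to 0.292 CPM. Over these 6 libraries, 118 of 17151 genes (0.688%) had r above 0.9. The 3 named genes are the highest of 17151 values of r, each from only 6 libraries. Such a ranking cannot show that they are regulated together with *Hgf*, which was not tested.

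*Met* (ENSMUSG00000009376), at chr6:17463800-17573980 on the plus strand, encodes the HGF receptor. It gave 100.3, 84.7 and 90.0 CPM in Pax7WT and 91.1, 72.1 and 77.6 CPM in Pax7KR. The second and the third Pax7KR libraries lay below all Pax7WT libraries, and the first Pax7KR library lay within their range. The log2 fold change was -0.19 (SE 0.09), or 0.875-fold with a 95% interval of 0.761 to 1.01, and had the smallest unadjusted p of the 10 genes in edgeR (0.0586, adjusted p = 0.992). It stayed between -0.29 and -0.12 when 1 library was left out. Met-203 held 97.3% to 99.4% of the *Met* reads in every library.

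*Cxcr4* (ENSMUSG00000045382), at chr1:128588199-128592293 on the minus strand, encodes the signalling receptor of CXCL12. Its values were 227.5, 220.9 and 229.8 CPM in Pax7WT and 202.5, 193.6 and 233.9 CPM in Pax7KR. The Pax7WT libraries were close together, and the Pax7KR libraries lay on both sides of them. Its log2 fold change was -0.11 (SE 0.07), or 0.929-fold (95% interval 0.834 to 1.03), and ran from -0.19 without the third Pax7KR library to -0.05. Mouse CXCR4 is known in forms that differ by a few residues near the N-terminus, and *Cxcr4* has a pair of annotated transcripts that differ at the end of the first coding exon. Both start at the same ATG, and Cxcr4-201 uses a splice donor 6 bases further on, which adds the bases in capitals (chr1:128589882-128592209, minus strand, with 20 bases of the second exon).
Cxcr4-201: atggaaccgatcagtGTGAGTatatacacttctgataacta
Cxcr4-202: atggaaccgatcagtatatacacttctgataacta

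Cxcr4-202 took 7.97%, 8.67% and 4.38% of the *Cxcr4* reads in Pax7WT and 6.19%, 8.51% and 6.96% in Pax7KR, with means of 7.01% ± 2.30 and 7.22% ± 1.18 (SD, n = 3). The genotypes overlapped, and the third Pax7WT library was the lowest. Cxcr4-202 is annotated without its coding end, so it is an incomplete model of the transcript.

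*Ackr3* (ENSMUSG00000044337), at chr1:90203980-90216751 on the plus strand, encodes the scavenging receptor of CXCL12. It gave 365.9, 275.5 and 347.2 CPM in Pax7WT and 267.8, 230.8 and 334.3 CPM in Pax7KR. The first 2 Pax7KR libraries were below all Pax7WT libraries, and the third was above the second Pax7WT library. The log2 fold change of -0.25 (SE 0.17) was the largest in size among the 10 genes, yet 27.5% of all genes tested had a larger one, and its 95% interval ran from 0.627-fold to 1.13-fold. Without 1 library it ranged from -0.40 to -0.13. Per transcript length, *Ackr3* stood at 0.881, 0.672 and 0.90 times *Cxcr4* in Pax7WT and at 0.743, 0.690 and 0.794 times in Pax7KR. The difference in the log2 ratio was -0.13 (exact permutation p = 0.4, adjusted p = 0.5 over 4 ratios), and without 1 library it ran from -0.265 to -0.054. The lowest *Ackr3* value in Pax7WT was again that of the library with the lowest immediate early sum. In Pax7KR the order was different, as the second library had the lowest *Ackr3* value and the highest sum, 43500 CPM. The part of that response was not tested.

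*Egfr* (ENSMUSG00000020122), at chr11:16752203-16918158 on the plus strand, encodes the receptor of EGF and its relatives. Its values were 361.2, 324.2 and 324.9 CPM in Pax7WT and 350.8, 381.2 and 337.3 CPM in Pax7KR. The second Pax7KR library was the highest, and the other Pax7KR libraries lay between the Pax7WT values. This gave a log2 fold change of 0.08 (SE 0.07), or 1.06-fold (95% interval 0.954 to 1.17), which ran from 0.031 to 0.135 without 1 library. A short transcript, Egfr-202, shares the coding exons of the full-length Egfr-201 up to a point and then reads into the intron, where its frame ends after 655 codons, against 1210 codons in Egfr-201. Such a form holds the extracellular part of the receptor without the transmembrane and kinase domains. The last shared exon is given in lower case to show where the receptor is cut short, followed in capitals by the 40 bases with which each form goes on, from the next exon in Egfr-201 (chr11:16887141-16889952) and from the intron in Egfr-202 (chr11:16887141-16887225).
Egfr-201: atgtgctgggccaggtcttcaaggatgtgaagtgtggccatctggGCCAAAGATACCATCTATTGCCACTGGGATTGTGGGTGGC
Egfr-202: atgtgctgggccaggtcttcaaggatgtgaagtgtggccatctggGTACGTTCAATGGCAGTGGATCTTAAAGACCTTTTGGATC

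Egfr-202 took 8.11%, 8.35% and 10.8% of the *Egfr* reads in Pax7WT and 10.4%, 12.1% and 8.60% in Pax7KR, which is 9.10% ± 1.5 and 10.4% ± 1.73 (SD, n = 3). The ranges overlapped. As shares of TPM, which allow for its shorter length, the values were 17.4%, 20.1% and 22.8% in Pax7WT and 21.1%, 25.2% and 21.3% in Pax7KR. Egfr-202 rested on 480 to 1098 reads, so the short form was measured more firmly than the *Hgf* transcripts.

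*Igf1r* (ENSMUSG00000005533), at chr7:67952827-68233668 on the plus strand, encodes the receptor of IGF1. It gave 274.4, 239.2 and 198.5 CPM in Pax7WT and 215.8, 233.5 and 213.6 CPM in Pax7KR. All 3 Pax7KR libraries lay within the wide range of Pax7WT, in which the first library was the highest. A log2 fold change of -0.10 (SE 0.11) was obtained, with a 95% interval of 0.788-fold to 1.10-fold, and it became 0.01 without the first Pax7WT library.

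*Insr* (ENSMUSG00000005534), at chr8:3122061-3279617 on the minus strand, encodes the insulin receptor. Its values were 101.9, 98.5 and 100.3 CPM in Pax7WT and 99.5, 107.4 and 111.4 CPM in Pax7KR. The second and the third Pax7KR libraries were above all Pax7WT libraries, and the first was not. The log2 fold change was 0.08 (SE 0.06), or 1.06-fold (95% interval 0.963 to 1.16). Per transcript length, *Insr* was the only one of the 10 genes whose genotypes did not overlap, with 18.9, 18.4 and 17.9 TPM (reads per transcript length, scaled within each library) in Pax7WT and 19.3, 21.2 and 22.3 TPM in Pax7KR. Of all genes tested, 12.5% had no overlap in TPM. With transcript length as an offset, the log2 fold change was 0.13 (SE 0.08, edgeR adjusted p = 0.981). The full-length transcript Insr-201 held 96.5% to 98.4% of the reads. The insulin receptor is known in forms with and without a short alternative exon. Insr-201 lacks an exon of 36 bases (chr8:3181702-3181737) that the partial transcript Insr-203 holds between exons of Insr-201. Both stretches are given on the minus strand with 20 bases on each side of it (chr8:3174869-3184970), and the capitals mark that exon.
Insr-201: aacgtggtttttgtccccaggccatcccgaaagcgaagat
Insr-203: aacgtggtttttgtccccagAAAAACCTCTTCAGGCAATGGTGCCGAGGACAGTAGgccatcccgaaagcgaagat

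Insr-203 took 0.129%, 0.131% and 0% of the *Insr* reads in Pax7WT and 0%, 0.139% and 0.482% in Pax7KR. It had at most 11 reads in a library, and the third Pax7KR library was the highest. The retained-intron transcript Insr-204 (chr8:3177833-3181851) spans the same exon, so reads on it can be assigned to either. Insr-203 has only 672 bases, and no full-length *Insr* transcript in the data holds this exon. Reads from a full-length RNA with the exon can therefore be assigned to Insr-201, and these shares do not measure how often the exon is used.

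*Insr* stood at 0.451, 0.486 and 0.568 times *Igf1r* per transcript length in Pax7WT and at 0.514, 0.544 and 0.619 times in Pax7KR. The third library was the highest in both genotypes, and the ranges overlapped. The difference in the log2 ratio was 0.16 (exact permutation p = 0.3, adjusted p = 0.5), and without 1 library it ran from 0.082 to 0.25.

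*Osmr* (ENSMUSG00000022146), at chr15:6813577-6874969 on the minus strand, encodes the specific chain of the oncostatin M receptor. It gave 28.0, 29.9 and 25.1 CPM in Pax7WT and 32.4, 27.0 and 28.5 CPM in Pax7KR. The first Pax7KR library was the highest, and the other values were mixed between genotypes. This gave a log2 fold change of 0.08 (SE 0.10), with a 95% interval of 0.910-fold to 1.24-fold, which ran from 0.004 to 0.14 without 1 library and was 0.18 with transcript length as an offset. Osmr-201 took 80.4% to 95.8% of the reads, 89.6% ± 8.16 in Pax7WT and 85.1% ± 2.10 in Pax7KR (SD, n = 3).

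*Lifr* (ENSMUSG00000054263), at chr15:7090614-7197489 on the plus strand, encodes the LIF receptor chain. Its values were 121.1, 123.5 and 111.8 CPM in Pax7WT and 115.6, 119.4 and 118.7 CPM in Pax7KR. All Pax7KR values fell inside the Pax7WT range. Its log2 fold change was -0.01 (SE 0.06), or 0.992-fold (95% interval 0.906 to 1.09). Lifr-203 took 86.8% to 92.3% of the reads, and Lifr-201 took 4.85% to 10.1%. Both have the same coding exons, while Lifr-201 has an earlier start and a shorter last exon. *Osmr* stood at 0.393, 0.636 and 0.444 times *Lifr* per transcript length in Pax7WT and at 0.656, 0.502 and 0.586 times in Pax7KR, a difference in the log2 ratio of 0.27 (exact permutation p = 0.3, adjusted p = 0.5). In CPM the difference was 0.093, and without 1 library it ran from 0.122 to 0.469.

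*Il6st* (ENSMUSG00000021756), at chr13:112464070-112510086 on the plus strand, encodes gp130, the signalling chain that both of these receptors share. It gave 416.0, 404.8 and 396.2 CPM in Pax7WT and 401.6, 443.5 and 410.6 CPM in Pax7KR. The second Pax7KR library was the highest, and the others lay within the Pax7WT range. Its log2 fold change was 0.05 (SE 0.06), or 1.03-fold (95% interval 0.940 to 1.13). Its reads were divided between Il6st-201, at 62.4% ± 1.10 in Pax7WT and 63.0% ± 2.28 in Pax7KR, and Il6st-203, at 35.4% ± 1.26 and 34.6% ± 1.24 (SD, n = 3). Both have the same coding exons, so both forms encode the same protein. Il6st-203 starts further upstream, has 17 exons against 15, and runs 3226 bases further at its 3′ end.

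**Figure D2:**
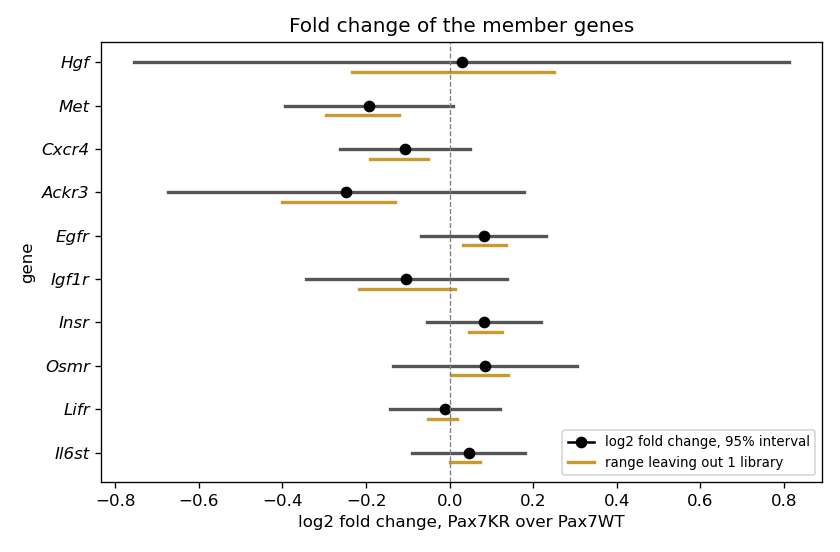
Log2 fold change (Pax7KR over Pax7WT) of each gene (points) with its 95% interval from edgeR (grey lines), and the range of the log2 fold change when 1 library is left out (yellow lines). Every interval holds 0, and the interval of *Hgf*, from -0.75 to 0.81, is the widest.

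Over the 10 genes, 48 transcripts had reads, and the genotypes did not overlap in the share of reads of 2 of them, against 7.84% of all transcripts with reads in tested genes that have more than 1. These 2 were Insr-204 and Osmr-205, named here after their values were seen. Both are annotated as retained introns and rested on 33 to 80 and 2 to 11 reads. Among the leading transcripts, all 10 overlapped between genotypes.

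**Figure D3:**
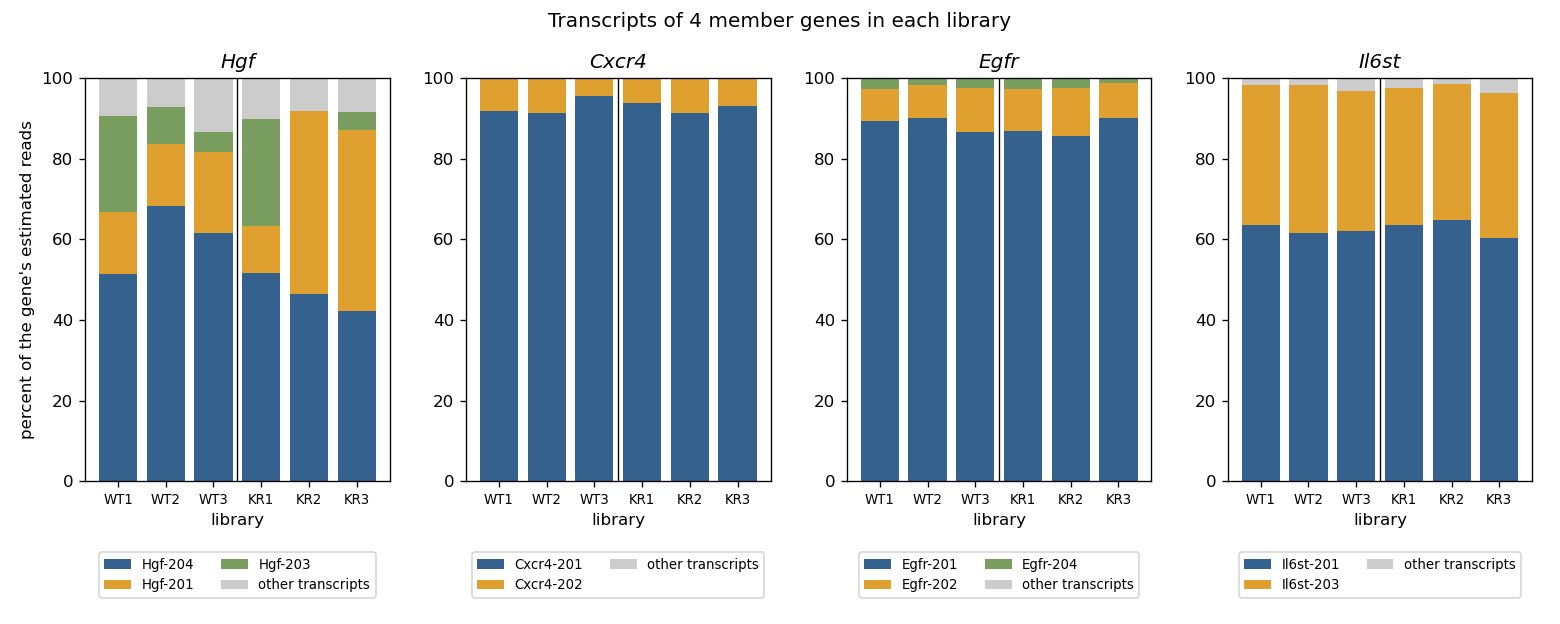
Percent of the estimated reads of *Hgf*, *Cxcr4*, *Egfr* and *Il6st* on each main transcript (stacked bars) in the 3 Pax7WT (left of the line) and 3 Pax7KR libraries. The bars of *Il6st*, *Cxcr4* and *Egfr* are nearly level, while Hgf-201 ranges from 11.7% to 45.5% within Pax7KR.

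Levels of different genes were compared per transcript length. *Cxcr4* was the highest at a mean of 237 TPM over the 6 libraries (222 to 254), above 97.3% of all genes tested. *Ackr3* followed at 186 TPM (153 to 216) and *Il6st* at 137 TPM (122 to 154), and these neighbours overlapped in their ranges. *Egfr* came next at 92.6 TPM (76.7 to 110). The CXCL12 receptors and gp130 thus stood above the growth factor receptors, and each step from *Il6st* to *Egfr* and from *Egfr* to *Igf1r* (37.3 TPM) was larger than the spread over libraries. *Met* (23.8 TPM) and *Lifr* (23.6 TPM) did not differ beyond their spread, and the ranges of *Met* and *Insr* also overlapped. *Insr* (19.7 TPM), *Osmr* (12.6 TPM) and *Hgf* (6.53 TPM) were the lowest, and none of them overlapped its neighbour. *Hgf* lay above 41.2% of all genes tested. Counting the leading transcript alone gave lower levels, among them 81.7 TPM for *Il6st*, 49.9 TPM for *Egfr* and 2.89 TPM for *Hgf*.

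**Figure D4:**
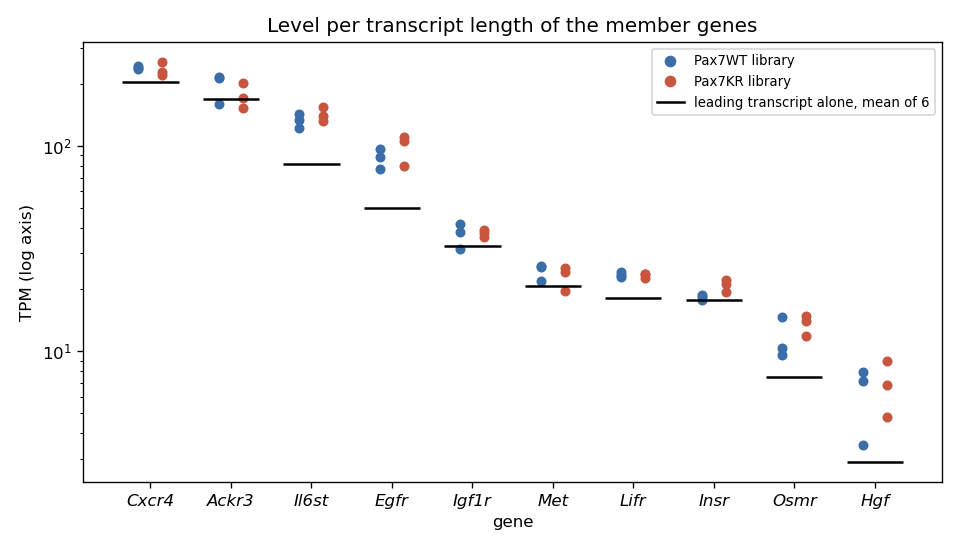
TPM (reads per transcript length scaled within each library, log axis) of the 10 genes in each Pax7WT (blue) and Pax7KR (red) library, ordered by their mean, with the level of the leading transcript alone (black line, mean of 6 libraries). The order runs from *Cxcr4* at 237 TPM to *Hgf* at 6.53 TPM, and *Met* and *Lifr*, at 23.8 and 23.6 TPM, lie side by side.

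*Hgf* stood at 0.278, 0.161 and 0.304 times *Met* per transcript length in Pax7WT and at 0.352, 0.35 and 0.198 times in Pax7KR. The low ratio of each genotype came from the library with low *Hgf*. The difference in the log2 ratio was 0.28 (exact permutation p = 0.5, adjusted p = 0.5), and it became -0.003 without the second Pax7WT library.

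The ligands of these receptors were measured in the same sorted cells. *Cxcl12* gave 108.7, 90.6 and 122.7 CPM in Pax7WT and 115.8, 94.6 and 104.3 CPM in Pax7KR. *Igf2* lay at 284 ± 39.3 CPM and 260 ± 18.8 CPM (SD, n = 3), and *Igf1* at 86.6 ± 32.6 CPM and 76.6 ± 19.0 CPM. Both of these growth factors and *Cxcl12* were therefore well covered, and none differed beyond the spread between libraries. *Egf* (3.55 ± 0.545 and 3.60 ± 1.08 CPM), *Hbegf* (3.23 ± 1.56 and 2.13 ± 0.743 CPM) and *Lif* (3.10 ± 0.647 and 2.95 ± 0.413 CPM) were low. *Il6* and *Osm* were lower still, with at most 23 and 12 reads in a library. In these bulk samples, fewer cells of a type and less RNA per cell cannot be told apart. The 14 endothelial markers summed to 385 to 485 CPM in Pax7WT and 430 to 608 CPM in Pax7KR, with 13 of 14 higher in mean and 0 past an unadjusted p of 0.05, and no marker at 0. The 10 smooth muscle and pericyte markers were all lower in mean, with a median log2 fold change of -0.14 and 0 past an unadjusted p of 0.05. The 12 fibro-adipogenic markers summed to 3460 to 3540 CPM and 3480 to 3860 CPM. Single genes weighed heavily in such sums. Over all libraries *Col3a1* lay at 1258 to 1411 CPM and *Gsn* at 1046 to 1157 CPM, but *Pi16* at 0.804 to 2.24 CPM. In the endothelial sum, *Tek* alone gave 184 to 231 CPM. The sums therefore do not measure how many of these cells were present, and the part of these cells in the ligand levels was not tested.

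Beyond the 10 genes, 85 ligands, regulators and signalling genes of their pathways were tested, from lists chosen for known function with earlier results of these data known. At an adjusted p under 0.1 there were 0 of 85, as for all genes tested, and 5 of 85 had an unadjusted p under 0.05, against 4.68% of all genes tested. Their median log2 fold change was 0.02, with 49 higher and 36 lower in mean in Pax7KR. In the HGF and MET list, 1 of 13 genes had an unadjusted p under 0.05 and the median was -0.05. That gene was *Ranbp9*, which encodes a scaffold protein that binds MET, with 79.5, 75.1 and 84.2 CPM in Pax7WT and 84.6, 93.7 and 91.8 CPM in Pax7KR. The groups did not overlap, and the log2 fold change was 0.18 (SE 0.07, edgeR adjusted p = 0.992). *Mst1r*, which encodes the related receptor RON, was at -1.71 on the log2 scale (SE 0.82), with 2 to 23 reads per library.

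In the CXCL12 list, 1 of 14 genes had an unadjusted p under 0.05 and the median log2 fold change was -0.02. *Cxcl11*, a chemokine that also binds ACKR3, gave 0.735, 0.565 and 0.926 CPM in Pax7WT and 0.175, 0 and 0.284 CPM in Pax7KR, a difference that rested on 0 to 20 reads (log2 fold change -2.27, SE 0.84, edgeR adjusted p = 0.992). *Hmgb1*, whose product forms a complex with CXCL12, had a log2 fold change of -0.17 (SE 0.08). In the EGF list there were 0 of 13, with a median of -0.07. The smallest unadjusted p values there belonged to *Hbegf*, a ligand of EGFR, at -0.59 (SE 0.37), and to *Cbl*, a ubiquitin ligase that removes EGFR and MET from the surface, at -0.09 (SE 0.06).

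In the IGF and insulin list, 2 of 23 genes had an unadjusted p under 0.05 and the median log2 fold change was 0.05. *Igfbp6*, which binds IGF2, gave 2.17, 2.43 and 4.14 CPM in Pax7WT and 5.64, 6.87 and 3.93 CPM in Pax7KR. The first and second Pax7KR libraries were above all Pax7WT libraries and the third was not, and the log2 fold change was 0.92 (SE 0.30, edgeR adjusted p = 0.992). *Grb10*, an adaptor that restrains INSR and IGF1R, had a log2 fold change of 0.18 (SE 0.07). In the IL-6 family list, 1 of 22 genes had an unadjusted p under 0.05 and the median was 0.06. *Ptpn11*, which encodes the phosphatase SHP2 that is recruited to gp130 and to growth factor receptors, gave 147.5, 151.3 and 146.0 CPM in Pax7WT and 163.8, 168.9 and 158.9 CPM in Pax7KR. Its groups did not overlap, with a log2 fold change of 0.14 (SE 0.06, edgeR adjusted p = 0.992). *Il11ra1*, the receptor chain of IL-11, had a log2 fold change of 0.14 (SE 0.07). Over all lists, 8 of 85 genes had groups that did not overlap in CPM, against 10.3% of all genes tested.

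**Figure D5:**
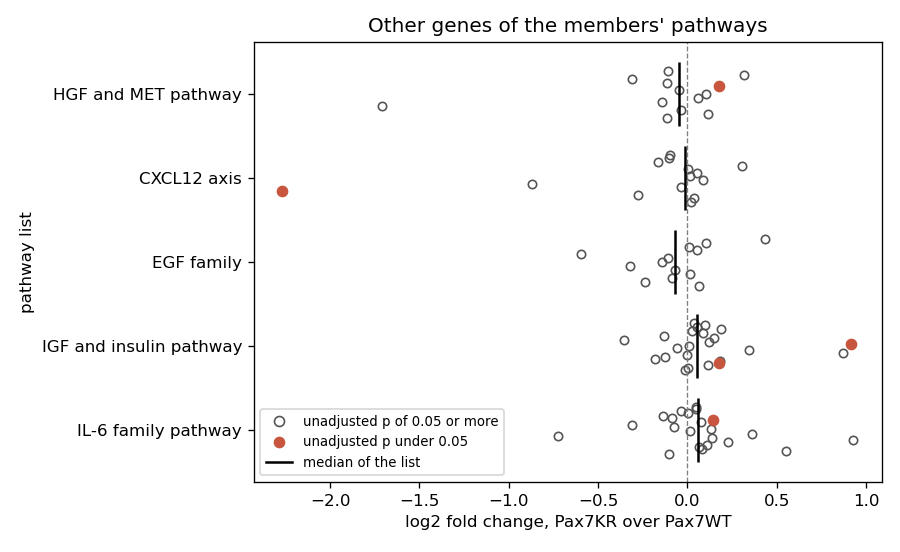
Log2 fold change (Pax7KR over Pax7WT) of the 85 tested genes in 5 pathway lists; filled red points have an unadjusted p under 0.05 and black lines are the medians. The medians lie between -0.07 and 0.06, and the points far from 0 are genes with few reads, such as *Cxcl11* with 0 to 20.

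PAX7 binds DNA through a paired domain and a homeodomain, and homeodomains of this class bind sites with the core TAATTA. In RefSeq windows of 300 bases around annotated transcript starts (GRCm38.p6), 0 of 11 windows of 9 of the 10 genes held TAATTA on either strand, and 5.29% of all 32851 windows did. *Insr* had no window. This describes only these windows.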

How the data were processed

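The authors sorted satellite cells, made stranded libraries and quantified each with salmon (version 1.3.0) on GENCODE transcripts of GRCm38 with genome decoys; the estimated counts they deposited hold 1 value per transcript without normalization, beside TPM and effective transcript lengths. Their table of fold changes and p-values, made with DESeq2 (version 1.28.1), was not used. The estimated counts were summed per gene through GENCODE annotation of that build that predates theirs, which matched 139791 of 140992 transcripts (unmatched: 0.592% to 0.634% of reads), and rounded. Genes reaching 5 reads in at least 2 libraries were fitted with edgeR (version 4.0.16, R 4.3.3): TMM, genotype alone, quasi-likelihood test, Benjamini-Hochberg adjustment over 17152 genes. Standard errors came from the F statistic and 95% intervals from its t quantile. CPM used TMM library sizes, and TPM was summed per gene. Ratios and transcript shares were compared with two-sided exact permutation tests (Python 3.11.15). All 6 libraries were mapped from their labels, and no column of another sample was left aside.

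The 10 genes, the pathway and marker lists and the tests were chosen with earlier results of these data known. Named beyond the 10 genes are the 2 genes of each pathway list with the smallest unadjusted p, the ligands *Cxcl12*, *Igf1*, *Igf2*, *Egf*, *Hbegf*, *Osm*, *Lif* and *Il6*, the 3 genes most like the member with the largest SD of log2(CPM + 1) over libraries (*Hgf*), *Pax7*, and markers of other cells beside a result. The 4 ratios were *Ackr3*/*Cxcr4*, *Insr*/*Igf1r*, *Osmr*/*Lifr* and *Hgf*/*Met*. The library titles number the replicates and do not name the mice they came from. The fit was tested on simulated data. Alternatives were other size factors, DESeq2 (version 1.42.0), transcript length as an offset, other filters, a cut-off of 0.05, a replicate block and leaving out each library. Of the 31-base sequences of a gene's transcripts, those shared with other genes made up 6.31% for *Hgf* and at most 0.852% for the other 9 genes. Marker sums of the lists not given with the results were, in Pax7WT and Pax7KR, 18.6 to 28.7 and 17.1 to 24.7 CPM for immune (*Cd3e* at 0), 2520 to 2920 and 2370 to 2670 CPM for smooth muscle and pericyte, 801 to 819 and 727 to 763 CPM for Schwann and glial, 43.1 to 85.0 and 55.8 to 57.4 CPM for tenocyte, and 54.9 to 63.3 and 46.6 to 66.2 CPM for myofibre markers. Single genes weighed heavily in these sums too, such as *Notch3* at 2052 to 2475 CPM for smooth muscle and pericyte. *Ncam1* gave 390 to 444 CPM of the Schwann and glial sum. Protein sequences were not used here.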

Additional observations from a re-analysis of the deposited data

How the results depend on the processing

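None of the 10 genes passed the cut-off in any of the 14 alternative analyses, and the lowest adjusted p of any of them was 0.516, for *Met* without a filter on low reads. At an unadjusted p under 0.05 there were 1 of 10 without a filter (*Met*), 2 with the replicate block (*Met* and *Ackr3*), up to 2 when 1 library was left out (*Ackr3* and *Cxcr4* without the third Pax7KR library, *Igf1r* without the third Pax7WT library, *Met* without the second Pax7WT or the first Pax7KR library), and 0 in the other fits. The number of all genes past the cut-off was 0 in edgeR and 30 with DESeq2, 45 with DESeq2 and the length offset, 157 without a filter, 13 with the replicate block, and 1 to 32 when 1 library was left out (32 without the third Pax7KR library). At an unadjusted p under 0.05 there were 803 of 17152 genes in edgeR and 683 of 17152 with DESeq2. There were 1373 of 24068 without a filter and 742 of 17152 with the replicate block. When 1 library was left out, there were from 533 of 16844 (second Pax7KR library) to 1048 of 16942 (second Pax7WT library). Of the pathway genes, 1 passed without a filter, *Igfbp6* (log2 fold change 0.92, adjusted p = 0.0898), and 0 in the other alternatives. Over all genes tested, same-numbered libraries did not deviate together (r = 0.002, 0.045 and -0.056), and pairs with different numbers gave -0.085 to 0.082. Such a correlation cannot exclude a shared litter or preparation, and the labels do not say whether libraries were paired. With the replicate block, exact sign-flip permutation tests of the ratios gave p = 0.5, 0.25, 0.5 and 0.75 for *Ackr3*/*Cxcr4*, *Insr*/*Igf1r*, *Osmr*/*Lifr* and *Hgf*/*Met*.

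Directions changed only when a library was left out, and the cause was not tested: over these fits the log2 fold change ran from -0.232 to 0.25 for *Hgf* (-0.169 without the first Pax7KR library), -0.218 to 0.014 for *Igf1r* and -0.053 to 0.017 for *Lifr* (0.003 and 0.002 without the first library of Pax7WT or Pax7KR), and the log2 ratio *Hgf*/*Met* from -0.003 to 0.557. The genotype difference in the share of the leading transcript, in percentage points, ran from -1.04 to 1.10 for *Cxcr4*, -0.28 to 0.05 for *Ackr3*, -0.46 to 1.77 for *Il6st* and -1.51 to 1.76 for *Lifr*, with a change of sign without the second Pax7KR library in all 4, the third Pax7WT library for *Cxcr4* and *Lifr*, and the first Pax7KR library for *Lifr*. In shares of TPM the difference for *Met* was -1.54 percentage points. *Hgf* had the fewest reads, 109 to 319 per library, and the part of depth in its spread was not tested. The exact tests of 3 against 3 libraries cannot reach 0.05.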
